A study of Mus musculus with 8 samples.

Results

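For each gene of resting macrophages, the signal assigned to precursor RNA (pre-mRNA) was set against the signal assigned to mature mRNA in the same untreated cells. The genes described are those with an untreated mRNA value of at least 50 normalized reads, which were 10441 of the 11415 genes in the deposited table. The macrophages came from bone marrow cultured for 5 days with M-CSF, the growth factor of the macrophage lineage. The donor mice had the genotype IL10-/-RAG2-/- on the strain 129S6/SvEvTac. All groups carried both disrupted genes, so no library came from a mouse with intact Il10 and Rag2. Directional sequencing libraries were made from total RNA after removal of ribosomal RNA. The study held 4 groups of 2 libraries, each group from 2 independent pools of macrophages. The resting ratio used the untreated group. The other 3 groups received 1 ng/mL LPS, the bacterial ligand of the Toll-like receptor TLR4, for 195 min. One of them had LPS alone, one had IL-10 at 1 ng/mL throughout, and one had IL-10 during only the final 30 min, with no separate dose stated.

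A gene is transcribed into a precursor that still holds its introns, and splicing removes the introns to leave mature mRNA. Because introns are usually removed and degraded soon after they are made, the precursor level is often read as a measure of ongoing transcription, whereas the mature level also depends on how long the mRNA survives. Total RNA keeps nuclear precursor that libraries selected for polyadenylated RNA largely lose. Macrophages are known for abundant mRNAs of lysosomal and phagocytic proteins and for inflammatory genes whose transcripts turn over quickly.

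Each deposited value was the mean of 2 libraries, and both libraries' reads could be worked out from it. In untreated cells libraries A and B held 38368730 and 21412968 mRNA reads and 25462969 and 8661271 pre-mRNA reads, and values are given in that order. Library A is the one with the larger scaling factor of each measure. Library A of mRNA need not be library A of pre-mRNA. In both LPS mRNA libraries the smallest count of any gene was 11, whereas in each other library it was 0 or 2. Genes with fewer mRNA reads after LPS are thus missing from the table, whatever their level at rest, and from all counts given here. Of 39 macrophage identity markers 38 were in the table and 37 had at least 50 mRNA, with summed mRNA of 1085782 and 998401 normalized reads. Markers of other cell types were present at lower sums: 1460 and 2485 for 5 of 10 stromal and endothelial genes, 2070 and 2657 for 8 of 13 neutrophil granule genes, 469.0 and 152.7 for 3 of 11 megakaryocyte, erythroid and mast cell genes, 8569 and 11165 for 6 of 10 dendritic genes, and 19851 and 20912 for 4 of 14 lymphoid genes. The lymphoid sum came mostly from Il7r (16509 and 15304) and Cd28 (3317 and 5487). Of the 5 stromal and endothelial genes 3 had at least 50 mRNA, among them Pdgfrb (122.4 and 249.5), whereas the stromal marker Pdgfra had no mRNA reads. The part of these cells in the ratios was not tested, and in bulk RNA fewer cells of a type and less RNA per cell cannot be told apart. The disrupted genes themselves gave reads: Il10 mRNA was 229.5 and 144.0 with pre-mRNA of 228.0 and 292.9, and Rag2 mRNA was 82.7 and 57.1 with pre-mRNA of 95.9 and 86.0. Where these reads lie relative to the disrupted parts cannot be seen from values per gene.

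Most genes held less precursor than mature signal at rest, and the range was wide. The median precursor signal was 58.0% of the mature signal (a log2 ratio of -0.78, with 1 added to each value), with quartiles of -1.98 and 0.22 on the log2 scale. At the extremes the log2 ratio was -15.03 and 7.71. For 3112 genes (29.8%) the precursor signal was the larger. Because the measures were scaled separately, a ratio has no natural zero, so each gene was tested against the median gene. With limma's moderated test on log2(value + 1), 2379 genes (22.8%) lay above the median and 2687 (25.7%) below it, at a Benjamini-Hochberg adjusted p under 0.05 and a distance of at least 1 log2 unit. Errors are standard errors (SE) with n = 2 libraries a measure, and the median SE was 0.34. In 5064 of the 5066 called genes all 4 pairings of an mRNA with a pre-mRNA library lay on the same side of the median. All distances from here on are log2 ratios minus the median gene.

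**Figure D1:**
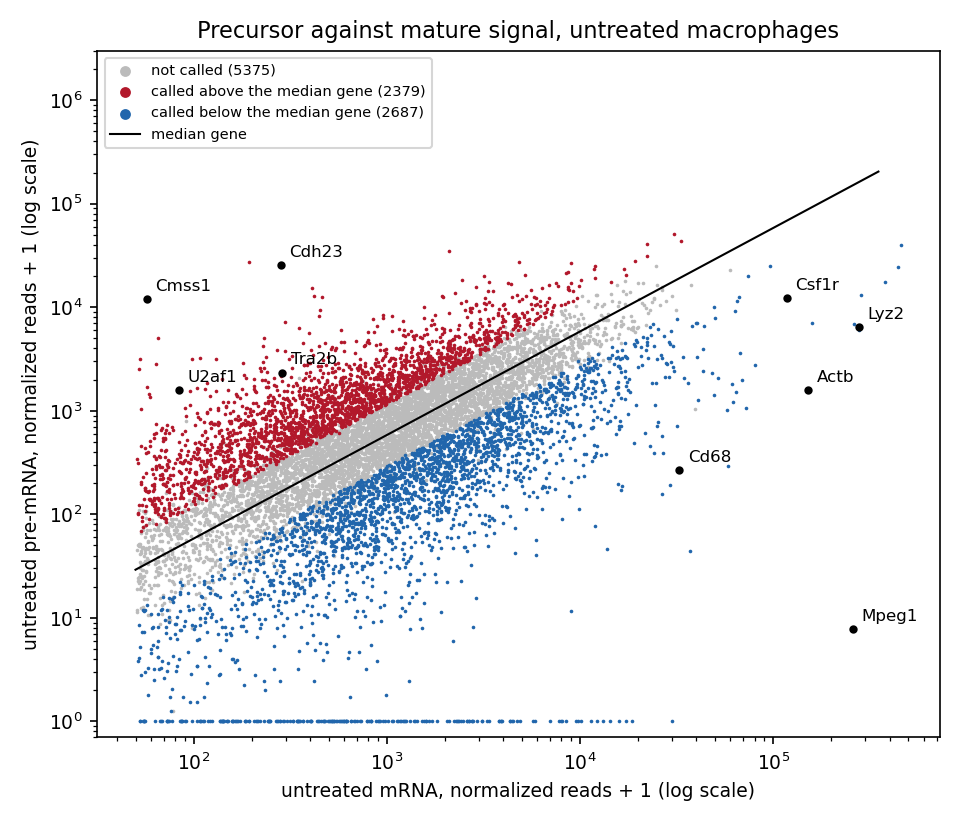
Untreated pre-mRNA against untreated mRNA for the 10441 genes, as the mean of 2 libraries in normalized reads with 1 added, on log axes. Each point is a gene, coloured by its call, and the line is the median gene. The 217 genes with no precursor reads lie along the bottom edge, Mpeg1 lies far below the line and Cmss1 and Cdh23 far above it.

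Nearly all genes without introns held no precursor signal. Of 10377 genes matched to a principal transcript in GENCODE M21 (GRCm38, the assembly of mm10), 220 had a single exon, and 201 of those (91.4%) had no precursor read in either untreated library. Among 10157 genes of 2 or more exons 14 (0.138%) had none. The single-exon group includes Cebpa, a transcription factor gene that directs myeloid differentiation, which had mRNA of 15444 and 16183 normalized reads and 0 precursor reads in both libraries. The AP-1 genes Jun (3368 and 6425), Junb (6479 and 9442) and Jund (7851 and 18462) were likewise at 0 in the precursor. So were Rhob, a small GTPase gene (8640 and 10924), and the linker histone gene Hist1h1c (4763 and 6608). For such genes the ratio only restates the mRNA level, and no fold is given. Of 14 members of a list drawn up as genes lacking introns all 14 were called below. Of these, 13 had a single exon, and Rhog, a small GTPase gene with 9.645 kb of intron in its principal transcript, was at -1.02. Also called below were 29 of 31 replication-dependent histone genes, of which 29 had 1 exon.

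Among genes with introns, the ratio followed intron length. The median distance was -3.58 for 278 genes with under 1 kb of intron, -2.20 for 764 genes with 1 to 3 kb, -0.88 for 2091 genes with 3 to 10 kb, 0.03 for 3281 genes with 10 to 30 kb, 0.61 for 2734 genes with 30 to 100 kb and 1.50 for 1009 genes with more than 100 kb. In the shortest class 84.9% were called below and 1.08% above, whereas in the longest 1.59% were called below and 63.9% above. Across these 10157 genes Spearman's rho between ratio and intron length was 0.60, given as a description, since genes are not replicates. A ratio per length was therefore added after the values were seen: precursor signal per kb of intron over mRNA signal per kb of exon, again set against its median gene. On that scale 1748 of 10157 genes (17.2%) lay above and 1544 (15.2%) below. Before the division 2359 of the 10157 (23.2%) were above and 2454 (24.2%) below. Of the 2359, 848 were above after it and 164 below. Of the 2454, 779 were below after and 165 above. The trend with length turned over: the median per-length distance was 0.62 in the shortest class and -0.76 in the longest. Since the calls before division follow intron length, both values are given for the gene lists with introns, to be read against the shares called over all members before division (22.8% above and 25.7% below) and over all genes with introns after it (17.2% and 15.2%).

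**Figure D2:**
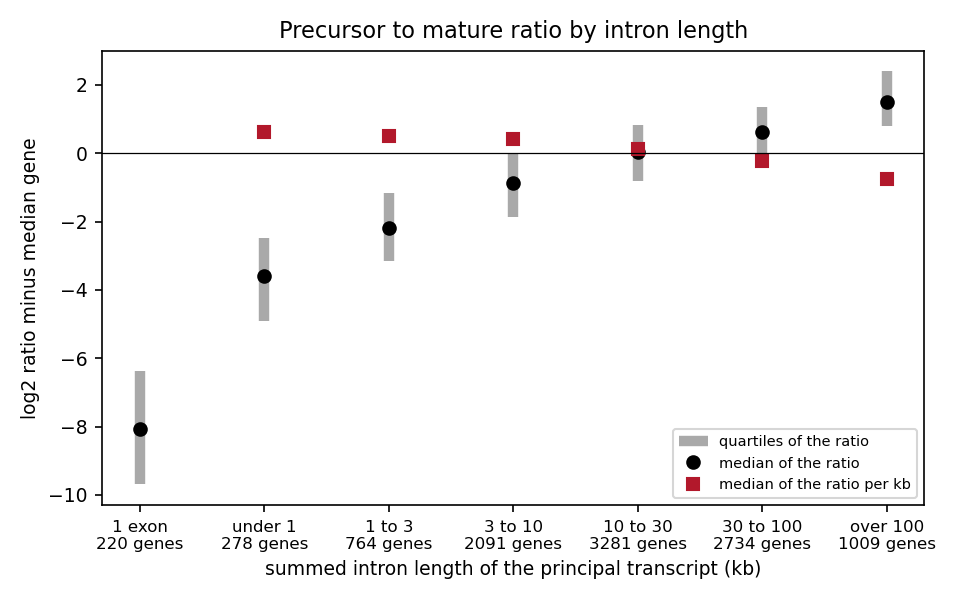
Distance of the precursor to mature ratio from the median gene (log2) by summed intron length of the principal transcript, with the number of genes in each class. Circles are medians, bars span the quartiles and squares are medians of the ratio per kb, whose median over all genes with introns is 0. The circles climb from -8.07 for single-exon genes to 1.50 above 100 kb, while the squares fall from 0.62 to -0.76.

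Genes that mark macrophages held little precursor for their mRNA. Of 37 members of the identity list 25 were called below and 2 above, with a median of -2.31. Per length, 21 of the 34 with introns were below and 1 above, with a median of -1.77. Lyz2, the lysozyme gene of myeloid cells, had mRNA of 309755 and 248052 normalized reads against pre-mRNA of 7583 and 5329, a distance of -4.67 ± 0.57 (adjusted p = 3.5e-05) and of -3.38 per length. Csf1r, the receptor for M-CSF, had mRNA of 104549 and 129546 and pre-mRNA of 12137 and 12361, at -2.47 ± 0.28 (adjusted p = 2.1e-05) and -1.90 per length. Adgre1, which encodes the F4/80 surface antigen, had mRNA of 33788 and 29887 and pre-mRNA of 9861 and 5590. Its distance was -1.32 ± 0.36 (adjusted p = 0.0082), and -3.78 per length with 121.6 kb of intron. Without pre-mRNA library B the distance before division was -0.91 and was not called. In all 3 genes both mRNA libraries lay above both precursor libraries.

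Among genes with precursor reads the lowest ratio belonged to Mpeg1, which encodes the pore-forming phagocyte protein perforin-2. Its mRNA was 292019 and 227517 normalized reads and its precursor 4.79 and 8.74. The gene (chr19:12460779-12465283, plus strand, mm10) has 2 exons around a single intron of 171 bases, and the distance was -14.29 ± 0.99, or -6.86 per length, called below on both scales. Cd93, a surface receptor gene with 0.247 kb of intron, had mRNA of 35618 and 38622 and pre-mRNA of 21.8 and 65.6, at -9.12 ± 1.13. Cd14, the LPS co-receptor gene, has only 91 bases of intron. Its precursor was 13.3 in one library and 298.7 in the other, against mRNA of 20574 and 32249, so its distance of -7.84 carries an SE of 1.72. Neither Cd93 (-1.59) nor Cd14 (-0.90) passed the threshold per length.

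Above the median in this list were Cd163 and Pparg. Cd163, a scavenger receptor for haemoglobin, had precursor of 2715 and 1903 normalized reads against mRNA of 1265 and 840.3. Its distance was 1.92 ± 0.26 (adjusted p = 6.9e-05), and 2.40 per length. Per kb the precursor signal was the smaller, at 107.6 normalized reads per kb of intron and 239.0 per kb of exon. Pparg, a nuclear receptor of lipid metabolism, had precursor of 2754 and 2686 against mRNA of 678.0 and 1076, at 2.45 ± 0.29. With 66.6 kb of intron it was at -0.02 per length. Spi1, the gene of the lineage factor PU.1, had mRNA of 7159 and 12319 and pre-mRNA of 3729 and 4972 and was not called (-0.35 ± 0.32, adjusted p = 0.37).

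Lysosomal genes were likewise low. Of 49 members 33 were below and 4 above, with a median of -1.93, and per length 28 were below and 1 above, with a median of -1.25. Cd68, which encodes a lysosomal membrane glycoprotein, had mRNA of 26424 and 38946 and pre-mRNA of 185.4 and 345.3, at -6.20 ± 0.50 (adjusted p = 1.4e-06) and -2.64 per length. The acid sphingomyelinase gene Smpd1 had mRNA of 1029 and 1377 and pre-mRNA of 6.92 and 16.0. The cathepsin genes Ctsd (-3.69), Ctsb (-3.69) and Ctss (-1.72) were also below, and were called below per length as well (-3.16, -2.90 and -3.33). Glb1, the gene of lysosomal beta-galactosidase, was above at 2.29 ± 0.24 with 70.9 kb of intron and at 0.17 per length. The proton pump gene Atp6v0c was above on both scales (4.81 ± 1.55 and 5.68), but its mRNA libraries stood apart at 57.6 and 304.1, and the first call was lost without mRNA library A (3.61) and without either pre-mRNA library (5.02 and 4.63). Among 7 MHC class II genes, which present antigen, 5 were below and 1 above, and per length 4 below and 1 above, with a median of -1.80. H2-Aa had mRNA of 920.8 and 1842 and pre-mRNA of 51.1 and 129.7 (-3.20 ± 0.51 and -2.24 per length). H2-DMa, which helps load peptides, had precursor of 1478 and 1494 against mRNA of 702.5 and 1164, at 1.49 ± 0.24 and 1.12 per length. Per kb it had 101.7 normalized reads of intron and 563.0 of exon. It overlaps the opposite-strand gene Brd2, with mRNA of 9748 and 12658. Opposite-strand genes cover 26.7% of the H2-DMa span, and their part in its precursor was not tested.

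Several genes of general cell function were also low. The iron storage genes Fth1 (mRNA 168746 and 354544, pre-mRNA 4794 and 8938) and Ftl1 were at -4.45 ± 0.50 and -4.32 ± 0.55. Actb, the cytoplasmic actin gene, had mRNA of 176167 and 126636 and pre-mRNA of 1233 and 1925, at -5.82 ± 0.32. Per length Fth1, Ftl1 and Actb were all still below, at -2.68, -1.56 and -2.89. Of 37 translation factors 21 were below and 6 above, and per length 18 below and 7 above. Eef2, the ribosome translocation factor, had mRNA of 48484 and 67866 and pre-mRNA of 198.7 and 387.6 (-6.91 ± 0.40, adjusted p = 9.9e-08, and -3.99 per length). Of 71 respiratory chain genes 26 were below and 5 above, and per length 26 of 70 below and 6 above. Of 38 proteasome genes 14 (36.8%) were below and 8 (21.1%) above, the latter near the share over all members, and per length 13 were below and 5 above. Across all 10157 genes with introns Spearman's rho between the per-length ratio and the mRNA level was -0.44. The mRNA level is itself the denominator of that ratio.

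**Figure D3:**
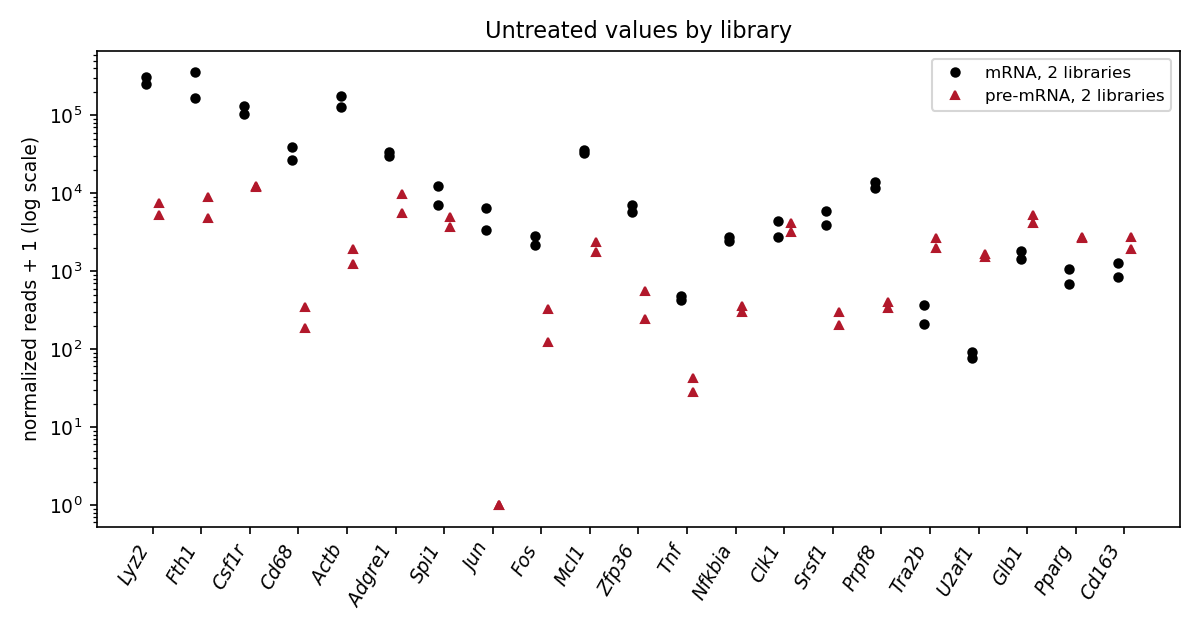
Untreated values of 21 genes in each library, in normalized reads with 1 added on a log axis. Circles are the 2 mRNA libraries and triangles the 2 pre-mRNA libraries. Lyz2, Cd68 and Actb have mRNA far above precursor, Jun has precursor at 0, and Tra2b, U2af1, Glb1, Pparg and Cd163 have precursor above mRNA in every library.

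Immediate early genes are switched on soon after a stimulus and their mRNAs are known to be short-lived. As a group they were low before length was divided out and not after it. Of 40 members 31 were called below and 1 above, with a median of -2.84. Of these 40 genes 6 had a single exon, and the median intron length of the rest was 1.55 kb. Per length the same list had 9 members above and 1 below of 34, with a median of 0.68. Short-intron genes as a class also had positive per-length medians, 0.62 under 1 kb and 0.51 for 1 to 3 kb. Zfp36, which encodes tristetraprolin (a protein that speeds the decay of inflammatory mRNAs), had mRNA of 5797 and 7097 and pre-mRNA of 240.8 and 561.0. Its distance was -3.34 ± 0.32, but 1.46 per length (adjusted p = 0.0034), so that its call turned round. Mcl1, a survival gene of the Bcl2 family, turned in the same way, from -3.29 ± 0.25 to 1.30, with mRNA of 35865 and 32870 and pre-mRNA of 1787 and 2356. Btg1, an antiproliferative gene, went from -4.05 ± 0.25 to 1.36. Zfp36 (0.68 kb of intron), Mcl1 (0.971 kb) and Btg1 (0.803 kb) belong to the class under 1 kb, whose per-length median was 0.62. Opposite-strand genes cover 36.71% of the Zfp36 span, and their part in its precursor was not tested. Fos (mRNA 2156 and 2831, pre-mRNA 124.1 and 324.9) and Myc (mRNA 176.6 and 441.9, pre-mRNA 9.59 and 71.4) were below before division, at -2.84 ± 0.63 and -2.56 ± 0.85, and passed no threshold after it (0.66 and -0.74). The first call of Myc was lost without mRNA library B (-1.87) or pre-mRNA library A (-1.16). The orphan nuclear receptor gene Nr4a2 was above on both scales, at 1.32 ± 0.42 and 3.71, with the first call lost without mRNA library A (0.58) or pre-mRNA library B (1.13).

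Of 43 cytokine and chemokine genes listed, 20 reached 50 mRNA at rest, and of these 12 were below and 1 above. Per length 5 were below and 4 above. Tnf, the gene of tumour necrosis factor, had mRNA of 482.2 and 423.3 and pre-mRNA of 27.2 and 42.3 (-2.92 ± 0.26, adjusted p = 3.0e-06), with only 0.988 kb of intron, and was at 0.58 per length (adjusted p = 0.094). Il15, a cytokine of lymphocyte survival, was the one above: precursor of 3956 and 2435 against mRNA of 389.6 and 229.6, at 4.15 ± 1.16. That call was lost without mRNA library B (3.80) or pre-mRNA library A (3.81). Its per-length value of 1.73 did not pass (adjusted p = 0.26). Of 45 interferon-stimulated genes 15 were below and 4 above, and per length 4 and 2. Of 29 NF-kB components and feedback genes 9 were above and 5 below, not far from the shares over all members, with a median of 0.58. Per length 7 (24.1%) were above and 1 below. Ikbkg, which encodes the NEMO subunit of the IκB kinase, had precursor of 8202 and 13285 against mRNA of 3783 and 2769 (2.47 ± 0.30 and 2.25 per length). Opposite-strand genes cover 32.55% of the Ikbkg span, and their part in its precursor was not tested. Nfkbia, which encodes the inhibitor IκBα, was below (-2.23 ± 0.21) and at 0.47 per length, with mRNA of 2733 and 2463 and pre-mRNA of 295.1 and 352.6.

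Genes of the splicing machinery held much precursor. Of 54 members 23 were above and 11 below, with a median of 0.67, and per length 29 were above and 3 below, with a median of 1.10. Tra2b, which encodes a splicing activator, had precursor of 2683 and 1982 against mRNA of 362.5 and 211.0 (3.83 ± 0.46, adjusted p = 3.2e-05, and 4.19 per length). Its paralogue Tra2a was at 2.52 and the SR protein genes Srsf5 and Srsf10 at 1.78 and 1.91, all called above. Srsf1, the founding SR protein gene, had mRNA of 5858 and 3865 and pre-mRNA of 201.4 and 298.7, which put it below (-3.50 ± 0.40), but per length it was above (1.67). Prpf8, the core spliceosome gene, was the lowest of the list on both scales (-4.33 ± 0.18 and -2.59 per length), with mRNA of 11534 and 14031 and pre-mRNA of 336.7 and 405.1. U2af1, which helps recognise the end of the intron, was the highest at 5.00 ± 0.26, with precursor of 1502 and 1648 against mRNA of 89.96 and 76.96. About 24.4% of its exonic 31-base words also occur in transcripts of another gene, so its mRNA value is uncertain. The same limit applies to genes described above, with shares of 62.13% in Ftl1, 46.94% in Jund, 27.76% in Lyz2, 23.75% in Actb and 21.17% in Eef2.

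A list of 28 genes known from other work to keep certain introns in nuclear RNA overlaps the splicing list. Of these 28 genes 7 were above and 4 below, the former near the share of all members (22.8%). Per length 17 (60.7%) were above, against 17.2% of all genes with introns, and 1 below, with a median of 1.13. The kinase genes Clk1 and Clk4 phosphorylate SR proteins. Clk1 had mRNA of 4446 and 2716 and precursor of 4164 and 3155, whose ranges overlapped, and at 0.84 ± 0.28 it was below the 1 log2 minimum, while per length it was above (1.09). It was called above without mRNA library A (1.18) or pre-mRNA library B (1.04). Clk4 was above on both scales (2.06 ± 0.23 and 1.73), with precursor of 2655 and 1929 and mRNA of 1072 and 810.5. Gabpb1, a subunit gene of a transcription factor, was at 2.60 ± 0.30 and 1.37.

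Zinc finger genes, most of which encode DNA-binding regulators, stood near the median gene until intron length was divided out. Of 256 members named Zfp and a number, 48 (18.8%) were above and 52 (20.3%) below, with a median of 0.19. Per length 113 of 253 were above and 4 below, with a median of 1.09. Zfp943 had precursor of 2739 and 3171 against mRNA of 346.0 and 111.7 (4.67 ± 0.50), and Zfp326 precursor of 1746 and 1282 against mRNA of 491.5 and 367.4 (2.59 ± 0.23). At the other end Zfp281, with 0.216 kb of intron, had mRNA of 1853 and 1189 and pre-mRNA of 2.13 and 11.7, at -7.11 ± 1.62 and 0.18 per length.

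**Figure D4:**
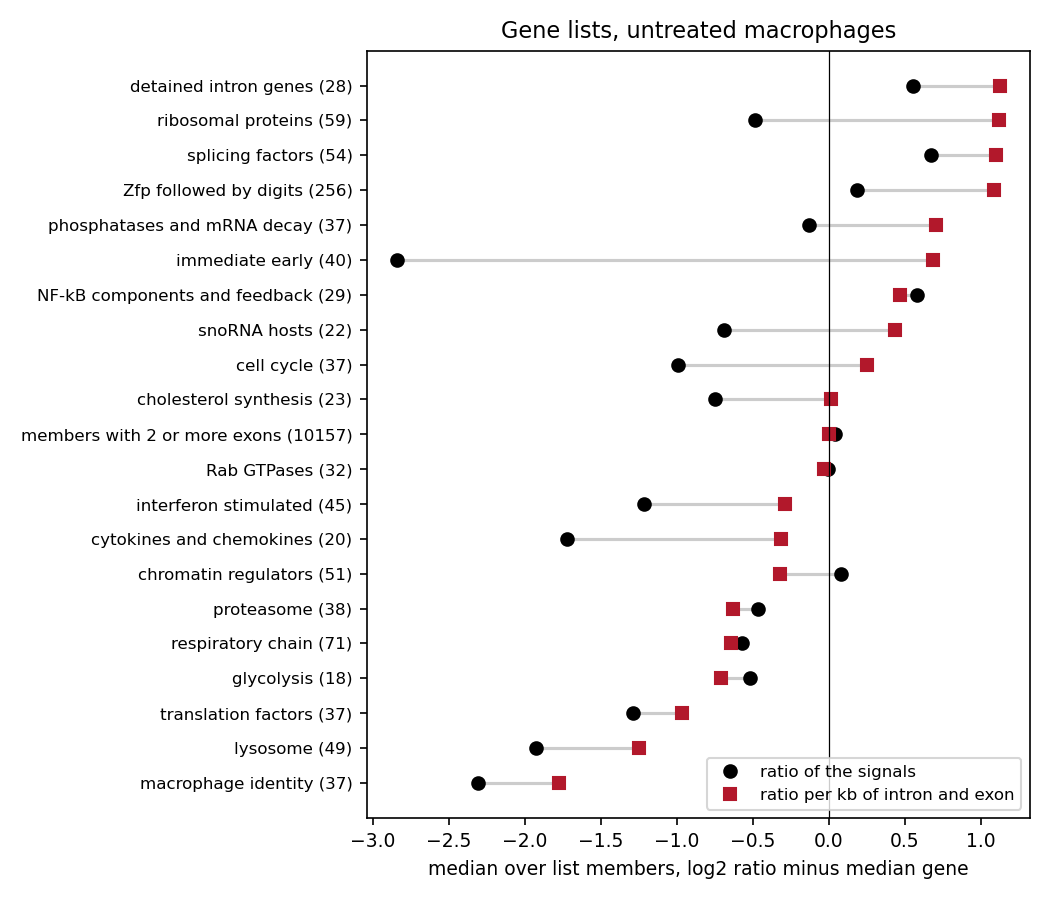
Median distance from the median gene (log2) for gene lists with at least 17 members that have introns, with the number of members in brackets. Circles are the ratio of the 2 signals and squares the ratio per kb of intron and exon. Macrophage identity and lysosomal genes are low on both scales, splicing factors are high on both, and immediate early genes pass from -2.84 to 0.68.

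Ribosomal protein genes lay on both sides of the median. Of 59 members 15 were above and 20 below, and values ran from -6.47 to 3.85. Per length 25 were above and 10 below. Rpl8 had mRNA of 9118 and 14746 and pre-mRNA of 67.1 and 84.5 (-6.47 ± 0.28), whereas Rpl3 had mRNA of 248.1 and 96.8 and pre-mRNA of 1281 and 1349 (3.85 ± 0.40). Rpsa had mRNA libraries far apart, at 454.4 and 54.6, and pre-mRNA of 802.8 and 1679. These genes have many processed pseudogenes of near-identical sequence, and how their reads were divided is not given in the sources used here. The median share of exonic 31-base words found in another gene's transcripts was 27.9% in this list against 1.79% over all members, 36.96% for Rpl3 and 5.90% for Rpl8. Its part in the ratios was not tested, and the values of this list are uncertain.

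The highest ratios of all belonged to genes with little mRNA, several of which share their locus with another gene. Cmss1, a small-subunit processome gene, had precursor of 8382 and 15638 against mRNA of 37.0 and 75.7, at 8.51 ± 0.58 (adjusted p = 3.8e-07). It spans chr16:57302000-57606864 on the minus strand, and Filip1l (mRNA 1629 and 1472) lies wholly inside it on the opposite strand, at chr16:57353093-57573126. Cdh23, a cadherin gene of hair cells, had precursor of 18255 and 32757 against mRNA of 269.2 and 296.7, at 7.21 ± 0.44. Inside its span (chr10:60302748-60696490, minus strand) lies 4632428N05Rik, now known as Vsir and encoding the checkpoint protein VISTA, with mRNA of 15895 and 21960 on the opposite strand. Prkg1, the gene of a cGMP-dependent kinase, holds Cstf2t (3208 and 2343) in the same way, and Ralgps1, a Ral exchange factor gene, holds Angptl2 (6907 and 6739). Paqr3, Capza1, Slc23a1 and Tatdn1 run across an opposite-strand neighbour with more mRNA than their own.

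With predicted genes left out, 8 of the 15 highest genes shared their span with another gene of the table. Each of these neighbours had more mRNA than the gene it overlaps. Among the 100 highest genes with introns 36 (36.0%) had such a neighbour, against 10.8% of all 10157. A neighbour of any mRNA level was found for 37.0% and 21.7%. The gene's own mRNA enters both this comparison and the ratio that ranked the genes, so the first contrast is partly set by the ranking. The 100 highest genes had a median mRNA of 157.4 and 72.15 kb of intron, against 923.8 and 19.8 kb for genes with introns. In 114 (1.12%) of all 10157 the precursor signal per kb of intron exceeded the mRNA signal per kb of exon. Cdh23 was one, with 66.7 normalized reads per kb of intron and 25.5 per kb of exon, and Paqr3 another, with 223.5 and 28.5. The libraries were directional, but whether reads were counted by strand is not given in the sources used here, so reads of these genes and of their opposite-strand neighbours cannot be told apart. As to shared sequence, 27.3% of the 99 genes with a transcript among the 100 highest had at least 20% of their exonic 31-base words in another gene, against 12.0% of all members. The share was 23.6% for genes above per length, 7.77% for those below and 11.7% for all with introns. Genes on the same or the opposite strand covered at least 20% of the span in 24.3%, 10.5% and 15.4% of these sets. The part of either in the per-length calls was not tested. Among the 15 highest, at least 20% of the words were shared in Tom1 (54.5%), Zc3h3 (77.4%) and Capza1 (70.8%). Of the others Camkmt, a calmodulin methyltransferase gene, had precursor of 1705 and 1180 against mRNA of 27.1 and 88.1 (5.60 ± 0.48) and, with 366.4 kb of intron, was at 0.53 per length. Ift43, a ciliary transport gene, was at 5.47 ± 0.43 and at 1.56 per length. Cdk8, the Mediator kinase gene, had precursor of 8477 and 22070 against mRNA of 480.9 and 338.9, at 5.86 ± 1.03.

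The threshold of 50 set which low genes were included. Just inside it, Bzrap1 (mRNA 51.6 and 48.4, distance -1.80), Pgm5 (24.5 and 75.7, -1.24) and Gem (33.1 and 67.0, -1.09) were not called, although without pre-mRNA library B Bzrap1 (-3.02) and Gem (-2.41) were. Just outside, Cyb5d1 (49.0 and 50.9) was at -0.02, Rps27 (37.7 and 62.1) at 1.25 and Spag1 (60.2 and 39.7) at 2.18.

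Most genes called at rest lay on the same side of the median after treatment. The treated libraries took no part in the resting contrast, although they shared its estimate of spread. Of the 2379 genes above the median at rest, 98.2% were above their group's median after LPS, 98.7% after LPS with IL-10 throughout and 97.8% after LPS with late IL-10, and 97.0% in all 3. Of the 2687 genes below, the values were 99.4%, 99.7%, 98.4% and 98.0%. At least 1 log2 unit above were 88.8% of the first set after LPS, against 27.6% of all members. For the second set, 88.4% were at least 1 log2 unit below, against 30.5%. Gene structure is the same in every group. At rest 97.3% of single-exon genes were called below and 63.9% of genes with over 100 kb of intron above. Much of the agreement was therefore set in advance, and it is no independent support for the calls. The same shares were not computed for the per-length ratio.

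The ratio of 136 members (1.30%) fell and that of 25 (0.239%) rose after LPS, by limma's test of the interaction at an adjusted p under 0.05. Unadjusted, 799 were lower and 388 higher at p under 0.05. Of the 136, 112 had a precursor more than 2-fold lower and 88 an mRNA within 2-fold of rest. The median change was -3.10 log2 in the precursor and -0.37 in the mRNA. In 14 of the 136 and 5 of the 25 the precursor was at 0 in both groups, so the change is that of the mRNA alone.

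Trem2, a lipid receptor gene of phagocytes, had precursor of 6343 and 6665 at rest and 61.1 and 162.0 after LPS, while its mRNA was 13494 and 16902 and then 11923 and 11249. Its log2 ratio fell by 5.63 ± 0.58 (adjusted p = 6.3e-04). Laptm5, a lysosomal membrane gene of blood cells, had precursor of 3667 and 4265 at rest and 149.2 and 210.5 after LPS, with mRNA of 36967 and 50045 against 35691 and 37894 (a fall of 4.25 ± 0.35, adjusted p = 1.4e-04). Precursor libraries did not overlap between the groups for either gene, and mRNA changes were -0.38 and -0.23. Abcc3, a drug and conjugate exporter gene, fell by 4.77 ± 0.65, Ptgs1, the constitutive cyclooxygenase gene, by 5.40 ± 0.89, and Edil3, an integrin ligand gene, by 4.21 ± 0.34. The call of Ptgs1 was lost without untreated mRNA library B (-5.31), untreated pre-mRNA library A (-5.30) or LPS mRNA library A (-5.13). St6gal1, a sialyltransferase gene, fell by 4.36 ± 0.28, and here the mRNA was lower as well, at 1979 and 2093 after LPS against 7214 and 7086. Of 49 lysosomal members 5 fell and of 37 identity members 3 fell, with 0 and 1 risen.

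Among the 25 rises, the ratio of Aoah, the gene of an enzyme that inactivates LPS, rose by 2.89 ± 0.60 (adjusted p = 0.038). Its precursor went from 1495 and 1322 to 114467 and 51022 and its mRNA from 252.0 and 552.3 to 2226 and 3401. C3, the central complement gene, had precursor of 10.1 and 8.74 at rest and 1260 and 1008 after LPS, with mRNA of 631.7 and 1703 and then 12484 and 14084 (a rise of 3.09 ± 0.54). Bst2, the antiviral tetherin gene, rose by 2.98 ± 0.44. Mettl9, a methyltransferase gene, had precursor of 8314 and 8134 at rest and 50197 and 52481 after LPS, while its mRNA was 1143 and 976.8 and then 793.4 and 1067 (a rise of the ratio by 2.84 ± 0.34). Genes on the opposite strand cover 23.9% of the Mettl9 span, and their part in its precursor was not tested. For Pde4d, a cAMP phosphodiesterase gene, the precursor was 4191 and 4339 at rest and 4250 and 4687 after LPS, and the mRNA was lower, at 132.9 and 71.4 against 746.2 and 780.7. Aoah lost its call without any 1 of 6 libraries (2.30 to 3.19), all but untreated mRNA library A and LPS pre-mRNA library B. C3 lost it without either untreated pre-mRNA library, either LPS mRNA library or LPS pre-mRNA library A (2.92 to 3.18). Pde4d lost it without any 1 of 6 (2.58 to 3.09), all but LPS mRNA library A and LPS pre-mRNA library B. Bst2 kept its call without any 1 library but lost it in a fit of the untreated and LPS libraries alone (2.98, adjusted p = 0.053). Mettl9 kept its call in both cases. For 2 genes known to respond to LPS the change of the ratio did not pass the test. Nfkbia had mRNA of 58491 and 55458 and precursor of 4965 and 6745 after LPS, a change of -0.30 ± 0.30 (adjusted p = 0.87). Tnf had mRNA of 216667 and 215025 and precursor of 6220 and 7677, a change of -1.27 ± 0.36 (adjusted p = 0.13). Over all genes, a fit of the untreated and LPS libraries alone gave 56 falls and 5 rises. Without any 1 of the untreated libraries, the LPS mRNA libraries or LPS pre-mRNA library A there were 50 to 89 falls, and without LPS pre-mRNA library B there were 212 falls and 44 rises. Rises numbered 6 to 31 without any 1 of the other libraries.

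**Figure D5:**
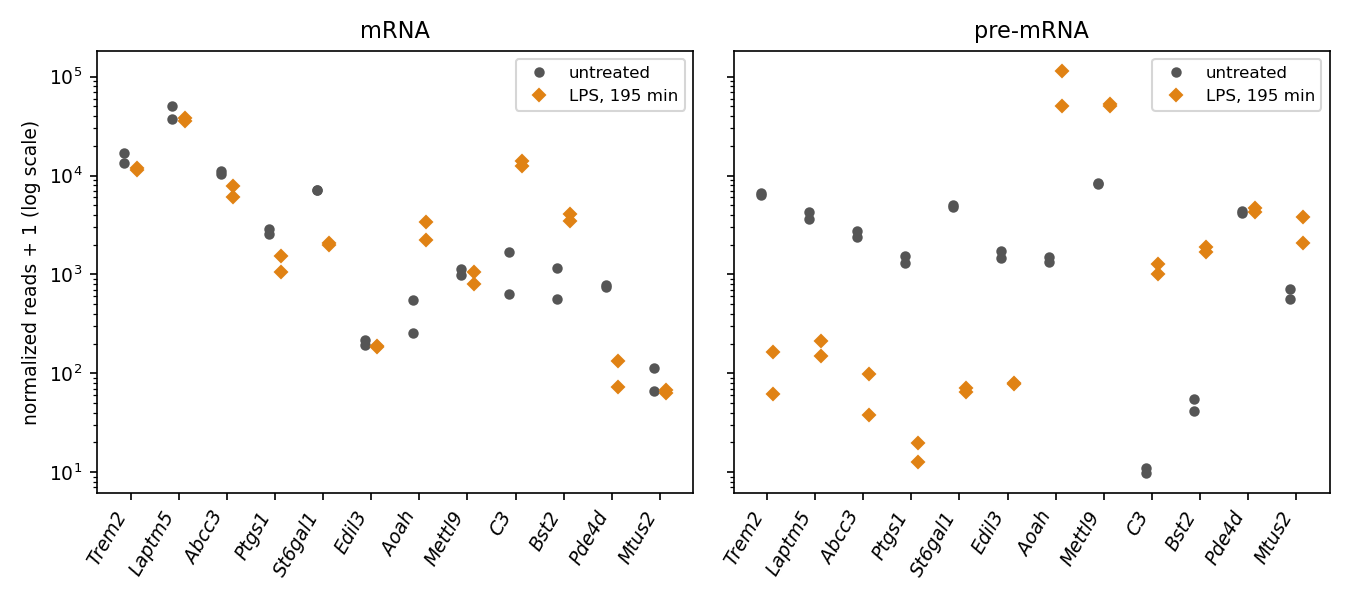
Values of 12 genes in each untreated (circles) and LPS (diamonds) library, in normalized reads with 1 added on a log axis, mRNA at left and pre-mRNA at right. For the first 6 genes the LPS precursor lies far below the untreated precursor. Aoah, Mettl9, C3 and Bst2 have more precursor after LPS, and Pde4d has less mRNA with a like precursor.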

How the data were processed

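Expression was measured in 8 libraries of total RNA, 2 in each of 4 groups. The submitters' processing notes name Trim Galore, DESeq and mm10. No source used here gives their versions, an aligner, a counter, an annotation, the use of strand or how pre-mRNA reads were assigned. The authors deposited 1 table of normalized signal values, each the mean of a group's 2 libraries, for mRNA and pre-mRNA. In each column 1 pair of step sizes, one per library, accounted for 100% of values in whole reads with a single solution, which gave each library's reads. All p-values rest on this step, which was checked on simulated data. They reflect variation between 2 macrophage pools, some of it possibly technical, and treat mRNA and pre-mRNA as independent although they share an RNA sample.

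No column holds counts, so the planned count test gave way to limma-trend (limma 3.58.1, R 4.3.3) on log2(value + 1), a scale that understates differences of low genes. All 16 library columns were in 1 fit, with Benjamini-Hochberg adjustment over all 11415 genes. For the per-length ratio the adjustment ran only over genes of the table with at least 50 bases of intron. The fit was tested on simulated data too.

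Gene structure came from 1 principal transcript a gene in GENCODE M21, matched for 10377 of 10441 genes (302 by an older symbol). The per-length ratio was computed for genes with at least 50 bases of intron. Shared sequence is the percentage of exonic 31-base words also found in another gene's transcripts.

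The genes, lists and tests were chosen with earlier results of these data known, and lists are described without a test. Named genes were the 15 highest and 15 lowest called ratios, the 10 lowest with at least 10 precursor reads in each untreated library, up to 2 at each end of each list, the 8 largest rises and 8 largest falls with LPS, the 3 genes on either side of 50 mRNA, and 20 preset genes, with predicted genes left out. Only part of them is described. Ctsd, Ctsb, Ctss, Tra2a, Srsf5, Srsf10, Il7r, Cd28, Pdgfra, Il10, Rag2, Rhog and the overlapping neighbours were added after their values were seen.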

Additional observations from a re-analysis of the deposited data

How the results depend on the processing

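The counts at rest stayed within 1.5 times under other pseudocounts (0.5 or 5), other mRNA minimums (10 or 200), a pre-mRNA minimum of 10, a fit of untreated libraries alone and limma-voom on the recovered reads, with 1993 to 2534 genes above the median and 2288 to 2844 below. Without 1 untreated library there were 2008 to 2312 above and 2243 to 2548 below. Centring on total reads gave 2771 above and 2158 below. Of the settings chosen after seeing the data, keeping genes with under 5% shared sequence gave 1512 above and 1698 below (21.9% and 24.6% of the genes left), and the per-length ratio gave 1748 above and 1544 below. Apart from these settings, 1694 values of named genes at rest kept their side of the threshold, 49 lost the call, 5 gained it and none reversed. Per length, 6 named genes were called on the opposite side: Btg1 (1.36), Srsf1 (1.67), Zfp36 (1.46) and Mcl1 (1.30) turned above, and Ccnd3 (-1.28) and Pde4d (-2.96) below.

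The LPS counts, 136 falls and 25 rises, moved more. Untreated and LPS libraries alone gave 56 and 5, at least 10 in both measures and groups 111 and 16, limma-voom 109 and 11, and scaling to total reads 78 and 18, with the median gene at -0.18. Leaving out 1 library gave 50 to 212 falls and 6 to 44 rises. Of the values of named LPS genes, 166 kept the call and 57 lost it. Where a call was lost the cause was not tested. No paired analysis was possible because the columns carry no replicate numbers. Depth limits low precursor values: untreated pre-mRNA library B held 8661271 reads.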
